A study of Saccharomyces cerevisiae with 24 samples.

Results

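The hexose transporters and glucose sensors of budding yeast are one protein family, and the genes taken here were HXT1 to HXT7, RGT2 and SNF3, chosen by their gene identifiers. Of these 9 genes, 8 were analysed, within a table of read counts for 5211 genes. HXT6 (YDR343C) was not analysed here, and values of its near-identical copy HXT7 (YDR342C) are uncertain, since how reads that match both were assigned is not given in the sources used here. The yeast was strain BY4741, as wild type or with the chaperone gene ZUO1 deleted (zuo1Δ), each grown from single colonies in synthetic complete medium with 2% glucose at 30 °C to an optical density of 0.6. Cells of both genotypes either had no stress, or 30 min of 0.25 mM hydrogen peroxide (H2O2) at 30 °C, or were brought at once to 37 °C by an equal volume of hot fresh medium and kept there for 45 min (heat). Temperature and fresh medium cannot be told apart in the heat groups. From 2 biological replicates of each group, both the mRNA selected by its poly(A) tail and the ribosome footprints (stretches of mRNA that a ribosome keeps from the nuclease) were sequenced, giving 24 libraries in 12 groups.

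Hxt proteins carry glucose and other hexoses across the plasma membrane by facilitated diffusion, and they differ in affinity. Hxt1 and Hxt3 have low affinity and serve cells in plentiful glucose, Hxt2, Hxt4, Hxt6 and Hxt7 have higher affinity and serve cells in scarce glucose, and Hxt5 is known from slowly growing or stressed cells. Rgt2 and Snf3 look like transporters but act as sensors: glucose outside the cell makes them signal, through the casein kinases Yck1 and Yck2 and the ubiquitin ligase subunit Grr1, the destruction of Mth1 and Std1. Without these cofactors the repressor Rgt1 leaves HXT promoters. The Snf1 kinase and the repressor Mig1 form a second branch that keeps several high-affinity transporters and SUC2 off in high glucose.

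Depth lay between 7810893 and 122213415 counts in mRNA libraries, of which the 8 genes took 0.178% to 0.583%. In footprint libraries it lay between 1686930.0 and 15788345, of which they took 0.133% to 0.272%. The deleted gene ZUO1 had a count of 0 in the 12 libraries of zuo1Δ. In 3 stressed zuo1Δ libraries, the genes with the largest rise under the labelled stress in wild-type footprints did not exceed the top unstressed library of that assay. The median marker level, as log2 relative to unstressed libraries, was 0.18 in the mRNA library labelled zuo1Δ H2O2 replicate 2 (limit 0.46), -0.03 in the mRNA library labelled zuo1Δ heat replicate 1 (limit 0.33) and 0.03 in the footprint library labelled zuo1Δ H2O2 replicate 1 (limit 0.57). Both mRNA libraries stood above the limit for the other stress: the one labelled H2O2 had heat markers at 0.68, and the one labelled heat had H2O2 markers at 1.10. Their markers thus go against their labels, and whether the labels are exchanged was not tested. The footprint library had heat markers at 0.52 (limit 0.41). Standing above the limit for the other stress was not particular to these libraries. Heat markers stood at 0.96 and 0.78 in wild-type H2O2 footprints and 0.85 in zuo1Δ H2O2 footprint replicate 2. H2O2 markers stood at 0.79 and 0.54 in wild-type heat mRNA (limit 0.46). Heat markers in wild-type H2O2 mRNA, at 0.17 and 0.05, did not exceed 0.33. The 3 libraries short of markers of their labelled stress are called the doubted libraries. Every value for stressed zuo1Δ mRNA and for zuo1Δ H2O2 footprints below carries that limit. The tests take the spread from all libraries of an assay, so the doubted libraries also enter the p-values of the other groups. Labels are used as given.

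HXT4, HXT1 and HXT5 lie side by side on chromosome VIII, and HXT7, HXT6 and HXT3 on chromosome IV. In the reference annotation (assembly R64), HXT4 (YHR092C) spans 287081 to 288811, HXT1 (YHR094C) 290913 to 292625 and HXT5 (YHR096C) 294669 to 296447 of chromosome VIII. HXT7 spans 1154216 to 1155928, HXT6 1159608 to 1161320 and HXT3 (YDR345C) 1162957 to 1164660 of chromosome IV. RGT2 (YDL138W) at 213351 to 215642 and SNF3 (YDL194W) at 111580 to 114234 are also on chromosome IV, and HXT2 (YMR011W) is at 288079 to 289704 of chromosome XIII. These coding regions are 1626 to 2655 bases long, and no other annotated gene overlaps any of the 9.

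Unstressed wild-type cells had most footprints on HXT2 and HXT3 and fewest on HXT5 and both sensor genes. Per length, as footprint RPKM (CPM per kilobase of coding length, where CPM is counts scaled to a common library total, mean ± SD, n = 2), the order was HXT2 at 529 ± 86.7, HXT3 at 381 ± 130.1, HXT1 at 192 ± 88, HXT4 at 33.6 ± 2.56, HXT7 at 11.7 ± 7.28, SNF3 at 3.20 ± 0.773, RGT2 at 2.84 ± 0.333 and HXT5 at 0.968 ± 0.314. The replicates of HXT2 and HXT3 overlapped, as did those of SNF3 and RGT2, and all other neighbours in that order were apart. In mRNA RPKM, HXT2 (1518 ± 468), HXT3 (1401 ± 447) and HXT1 (428 ± 76) led in the same order, followed by HXT4 (66.5 ± 37.3), HXT7 (42.8 ± 40.8) and RGT2 (29.1 ± 3.09), whose replicates overlapped, and by SNF3 (6.96 ± 1.29) and HXT5 (5.73 ± 3.22). In wild-type footprints the leading gene was HXT3 after H2O2 (370.4 ± 59.7 RPKM, above HXT2 at 268 ± 29.4 in both replicates) and HXT1 after heat (335 ± 19.7 RPKM, above HXT3 at 295 ± 28.9 in both replicates). In zuo1Δ footprints HXT2 led without stress at 754 ± 76.6 RPKM, above HXT3 at 233 ± 41.7, and in zuo1Δ heat HXT3, HXT1 and HXT2 overlapped.

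**Figure D1:**
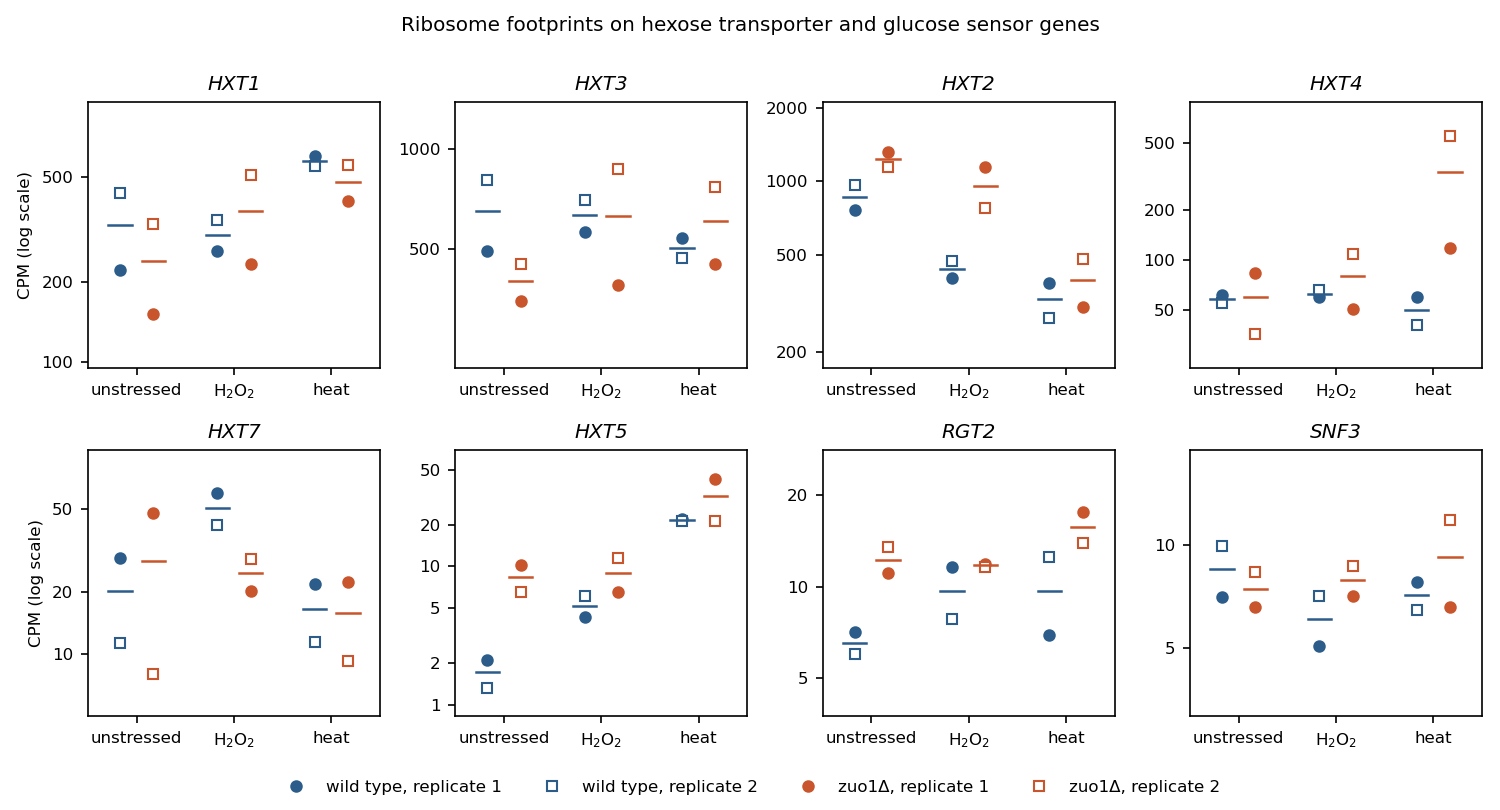
Footprint level of each of the 8 genes in CPM scaled by TMM factors (log axis) for 3 conditions and 2 genotypes. Filled circles are replicate 1, open squares replicate 2 and bars the mean of both. HXT2 stands lower after heat than without stress in both genotypes, HXT5 stands higher, and HXT4 is highest in 1 zuo1Δ heat library.

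Among the footprint comparisons, heat changed HXT2, HXT4 and HXT5, H2O2 changed HXT2, and the other 5 genes passed in no comparison. Calls below are from edgeR's quasi-likelihood test at a Benjamini-Hochberg adjusted p under 0.05 over all genes tested, with 2 libraries per group, and all 8 genes passed the low-count filter. These are bulk libraries, in which more cells with a transcript and more of it per cell cannot be told apart. After heat in wild type, 2 of the 8 genes were called, HXT5 higher and HXT2 lower, while 9.81% of all genes were called in either direction. After heat in zuo1Δ, 3 of 8 were called, HXT4 and HXT5 higher and HXT2 lower, against 11.9% of all genes. After H2O2 in wild type HXT2 was called lower, against 18.1% of all genes. Between genotypes, HXT2 was called higher in zuo1Δ after H2O2, where 19.0% of all genes were called, and HXT4 was called higher in zuo1Δ after heat, where 6.48% were. A count of 1 among 8 genes cannot be set apart from such shares, and the counts of 2 and 3 after heat were not tested against theirs. The median log2 fold change of the 8 genes was -0.27 for heat in wild type and 0.50 for heat in zuo1Δ, against 0.07 and 0.01 over all genes. Without stress, 0 of 8 differed between genotypes by edgeR, against 4.82% of all genes, with 2 at an unadjusted p under 0.05 (HXT5 and RGT2) and 1 called by DESeq2 (HXT5). For H2O2 in zuo1Δ edgeR called 0 of 8 and 0% of all genes, with 0 of 8 at an unadjusted p under 0.05 and 0 by DESeq2. Replicate 1 of that H2O2 group is a doubted library, so these 0 calls cannot be read as a missing response to H2O2. For the difference in response between genotypes edgeR called 0 of 8 with H2O2 (1.36% of all genes; 0 at an unadjusted p under 0.05, 0 by DESeq2) and 0 of 8 with heat (1.03% of all genes; 1 at an unadjusted p under 0.05, HXT4, and 0 by DESeq2).

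**Figure D2:**
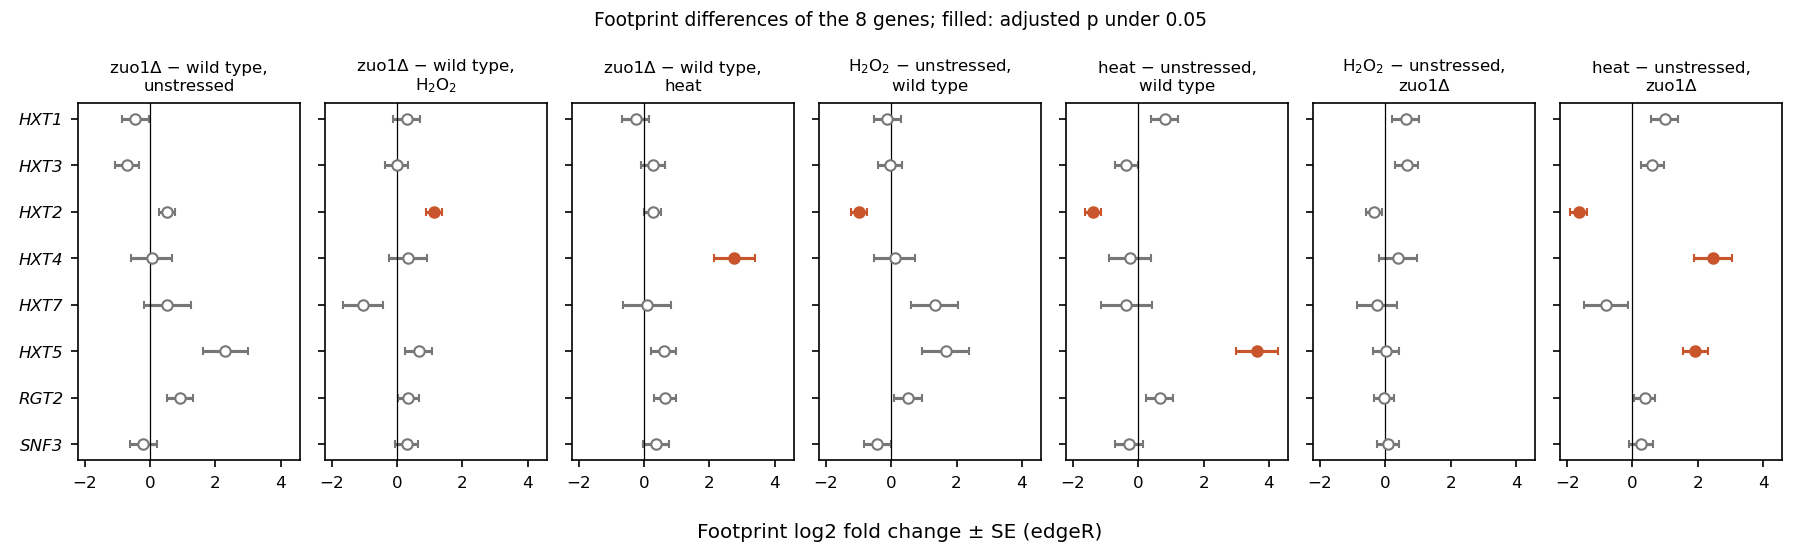
Footprint log2 fold change ± SE of each gene in 7 comparisons, from edgeR fits of all 12 footprint libraries. Filled orange points have an adjusted p under 0.05, open grey points do not. HXT2 has 4 filled points, HXT4 and HXT5 have 2 each and the remaining genes have 0.

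In mRNA, 2 of the 8 genes were called in 1 comparison, with HXT1 and HXT3 lower in zuo1Δ than in wild type after heat, where 37.3% of all genes were called. The median log2 difference of the 8 genes there was -1.35, against 0.06 over all genes. In the other 8 mRNA comparisons edgeR called 0 of the 8 genes. Counts at an unadjusted p under 0.05, then by DESeq2, were 2 and 1 for genotype without stress (0.276% of all genes called by edgeR), 2 and 1 for genotype after H2O2 (0.276%), 1 and 1 for H2O2 in wild type (2.66%), and 2 and 2 for heat in wild type (0.690%). They were 1 and 1 for H2O2 in zuo1Δ (0.0394%) and 1 and 1 for heat in zuo1Δ (0%). For the difference in response between genotypes they were 0 and 0 with H2O2 (0%) and 2 and 0 with heat (0%). The mRNA libraries differed in composition, with 19% to 61.7% of counts on the 50 highest genes, and scaling by library size alone moved the median log2 difference of all genes from 0.06 to 1.56 for genotype after heat and from -0.02 to 1.50 for genotype without stress. Of all genes called for genotype after heat, 826 were higher and 1066 lower with TMM factors and 2940 were higher and 181 lower with library size alone. In footprints the medians moved less, for heat in wild type from 0.07 to 0.33, where 179 were higher and 318 lower with TMM factors and 655 were higher and 164 lower with library size alone. The changes below are relative to the median gene under TMM factors.

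**Figure D3:**
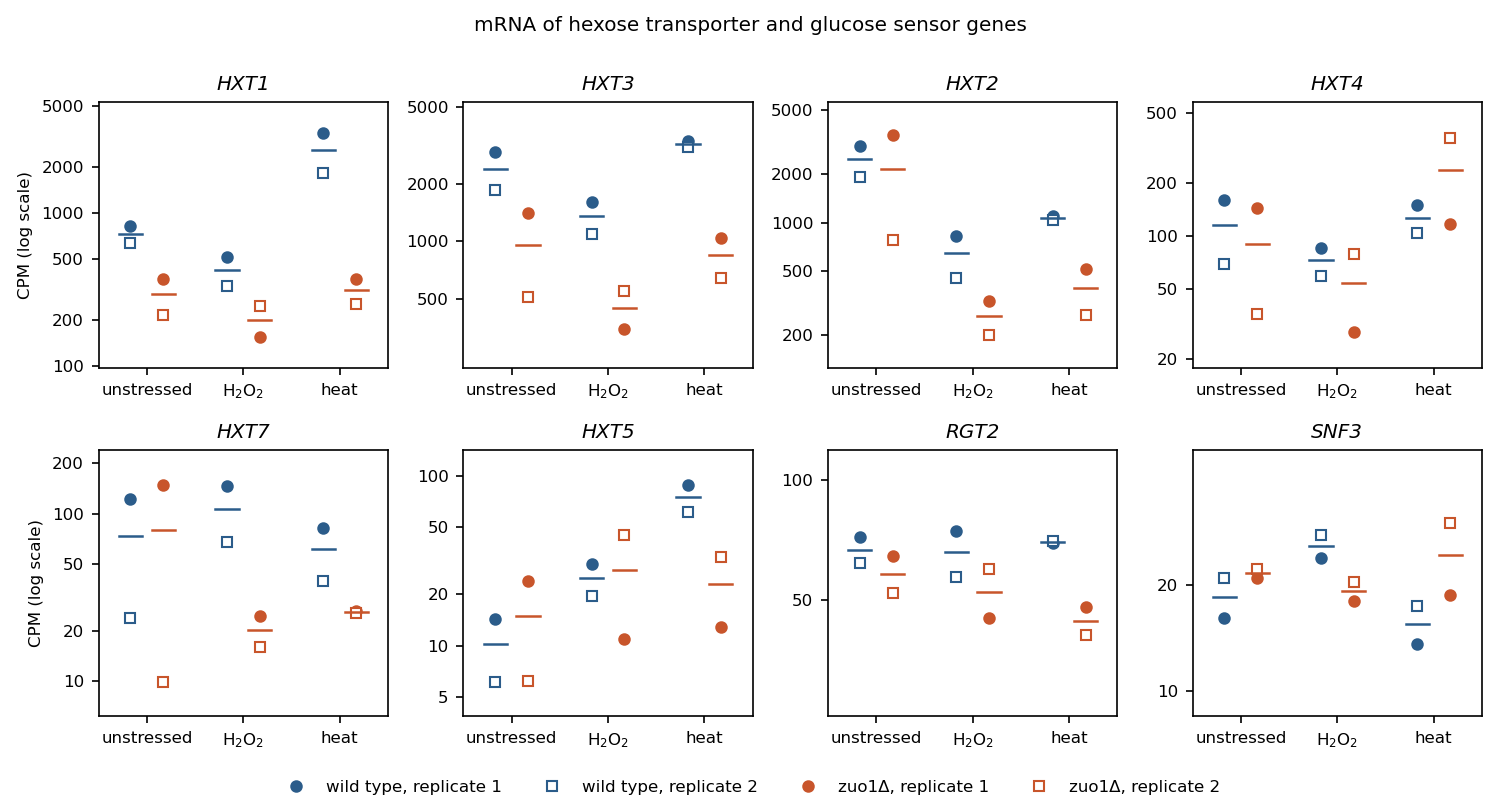
mRNA level of the same 8 genes in CPM scaled by TMM factors (log axis), with symbols as for the footprint levels. HXT1 is highest in the wild-type heat libraries, and the replicates of HXT7 without stress lie far apart in both genotypes.

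HXT1, the low-affinity transporter gene that high glucose induces, had its highest mRNA level in wild type after heat and was lower there in zuo1Δ. Its mRNA stood at 825 and 641 CPM in the 2 unstressed wild-type libraries, 516 and 337 after H2O2 and 3326 and 1827 after heat. In zuo1Δ it stood at 374 and 215, 156 and 248 and 372 and 255 CPM in that order. Both wild-type heat libraries lay above all 10 other mRNA libraries. By library size alone, HXT1 stood at 322 and 319 CPM in unstressed wild type, 409 and 431 after H2O2 and 384 and 326 in unstressed zuo1Δ. The lower levels after H2O2 in wild type and in unstressed zuo1Δ thus rest on the scaling. After heat the genotypes stayed apart on that scale, at 1415 and 1507 in wild type and 584 and 494 in zuo1Δ. The heat difference in wild-type mRNA did not pass (log2 1.81 ± 0.51, adjusted p = 0.0792), while with library size alone it did, at 2.19 (adjusted p = 0.0283), as in DESeq2 at 1.82 (adjusted p = 0.00231), and its adjusted p ran from 0.00231 to 0.578 over 11 alternatives. HXT1 mRNA was lower in zuo1Δ than in wild type after heat (log2 -3.04 ± 0.54, adjusted p = 0.00813, edgeR). That call was lost without wild-type heat replicate 1 at -2.54 (adjusted p = 0.0514), without zuo1Δ heat replicate 2 at -2.79 (adjusted p = 0.0886), and without the doubted libraries at -3.34 (adjusted p = 0.0610), and the adjusted p ran from 7.00e-09 to 0.0886 over 11 alternatives. The response to heat was not shown to differ between genotypes (log2 difference -1.72 ± 0.71, adjusted p = 0.263).

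On HXT1 footprints, heat gave 597 and 549 CPM in wild type against 222 and 435 without stress, and 405 and 554 against 152 and 330.3 in zuo1Δ. The heat libraries lay above the unstressed ones in both genotypes, yet neither difference passed (log2 0.80 ± 0.42, adjusted p = 0.250 in wild type and 0.99 ± 0.41, adjusted p = 0.135 in zuo1Δ, edgeR). The footprint levels of the genotypes after heat lay close, at log2 -0.26 ± 0.41, adjusted p = 0.751, in contrast to the mRNA levels. Footprints per mRNA, the ratio of group mean CPM, were 0.222 in wild-type heat (percentile 9.09 of 5070 genes) and 1.53 in zuo1Δ heat (percentile 60.1), and that difference was not tested.

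HXT3, the other low-affinity transporter gene, was lower in zuo1Δ than in wild-type mRNA after heat. It stood at 2926 and 1848 CPM in unstressed wild-type mRNA, 1606 and 1094 after H2O2 and 3315 and 3104 after heat, and at 1409 and 513, 351 and 551 and 1048 and 644 in zuo1Δ. With TMM factors the zuo1Δ libraries lay below the wild-type ones in each condition. Scaled by library size alone, the unstressed values were 1141 and 921 CPM in wild type and 1446 and 778 in zuo1Δ, and the heat values 1410.5 and 2559 and 1647 and 1248, so that the genotypes overlapped in both. The H2O2 values on that scale, 1274 and 1398 in wild type and 652 and 883 in zuo1Δ, did not overlap. The difference passed after heat (log2 -1.92 ± 0.58, adjusted p = 0.0223, edgeR) and not without stress (-1.31 ± 0.57, adjusted p = 0.181) or after H2O2 (-1.58 ± 0.57, adjusted p = 0.123). The call after heat was lost with library size alone at -0.45 (adjusted p = 0.407). It was also lost without wild-type heat replicate 1 at -1.87 (adjusted p = 0.0938), without zuo1Δ heat replicate 1 at -2.32 (adjusted p = 0.0550), without zuo1Δ heat replicate 2 at -1.61 (adjusted p = 0.158) and without the doubted libraries at -2.32 (adjusted p = 0.0738), and the adjusted p ran from 6.88e-04 to 0.407 over 11 alternatives. HXT3 footprints stood between 347 and 869 CPM over all 12 libraries, and none of the 9 footprint comparisons passed for it.

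HXT2, a transporter gene that low glucose induces and high glucose represses, had the most calls, 4 of 21 comparisons. Its footprints stood at 759.8 and 959 CPM in unstressed wild type, 402 and 470.0 after H2O2 and 383 and 274 after heat. In zuo1Δ they stood at 1315 and 1139 without stress, 1139 and 772 after H2O2 and 306 and 479 after heat. The groups compared did not overlap in any of the 4 calls. HXT2 footprints fell after heat in zuo1Δ (log2 -1.65 ± 0.25, adjusted p = 0.00334, edgeR) and in wild type (-1.39 ± 0.25, adjusted p = 0.00512). The zuo1Δ call held in all 11 alternatives, and the wild-type call in all but 1, without wild-type heat replicate 2, at -1.17 (adjusted p = 0.0835). The adjusted p ran from 1.09e-08 to 0.0328 over 11 alternatives for zuo1Δ and from 8.69e-07 to 0.0835 over 11 alternatives for wild type. In wild type they also fell after H2O2 (log2 -0.98 ± 0.25, adjusted p = 0.0188). That call was lost without unstressed replicate 2 at -0.86 (adjusted p = 0.118), without H2O2 replicate 1 at -0.87 (adjusted p = 0.130) and without H2O2 replicate 2 at -1.09 (adjusted p = 0.0718), with adjusted p from 7.74e-04 to 0.130 over 11 alternatives.

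After H2O2, HXT2 footprints were higher in zuo1Δ than in wild type (log2 1.13 ± 0.25, adjusted p = 0.0117, edgeR). The higher of the 2 zuo1Δ values comes from the doubted library, replicate 1. Without it the difference was 0.85 (adjusted p = 0.0587), and the call was also lost without wild-type H2O2 replicate 1 at 1.02 (adjusted p = 0.100) and replicate 2 at 1.25 (adjusted p = 0.0554), with adjusted p from 2.36e-04 to 0.100 over 11 alternatives. The response to H2O2 was not shown to differ between genotypes (log2 difference 0.62 ± 0.35, adjusted p = 0.338). HXT2 mRNA was lower in every stressed library than in the unstressed libraries of its genotype, at 3006 and 1930.1 CPM without stress, 833 and 457 after H2O2 and 1103 and 1045 after heat in wild type, and 3494 and 783, 326 and 201 and 519.6 and 268 in zuo1Δ. None of these mRNA differences passed in edgeR (H2O2 in wild type at log2 -1.94 ± 0.67, adjusted p = 0.117, heat in zuo1Δ at -2.44 ± 0.68, adjusted p = 0.483). The mRNA genotype difference after heat was log2 -1.45 ± 0.66, adjusted p = 0.0958 and turned to 0.01 (adjusted p = 0.990) with library size alone, so its direction rests on the scaling.

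HXT4, a transporter gene of higher affinity, rose in zuo1Δ heat, by very different amounts in the replicates. Its footprints stood at 118 and 552 CPM there, against 83 and 35.7 in unstressed zuo1Δ and 59.4 and 40.5 in wild type after heat. Both zuo1Δ heat libraries lay above the 10 others, of which the next highest, zuo1Δ H2O2 replicate 2, stood at 108. The difference passed within zuo1Δ (log2 2.47 ± 0.60, adjusted p = 0.0219, edgeR) and against wild type (2.76 ± 0.62, adjusted p = 0.0224). Without zuo1Δ heat replicate 2, the library with the high value, these became log2 0.97 (adjusted p = 0.235) and 1.26 (adjusted p = 0.184). The call within zuo1Δ was also lost without unstressed replicate 1 at 3.22 (adjusted p = 0.0517) and replicate 2 at 2.00 (adjusted p = 0.112), and the call against wild type without wild-type heat replicate 1 at 3.04 (adjusted p = 0.105) and replicate 2 at 2.48 (adjusted p = 0.186). Adjusted p ran from 0.00809 to 0.235 over 11 alternatives within zuo1Δ and from 0.00455 to 0.186 over 11 alternatives against wild type. The difference in heat response between genotypes was log2 2.72 ± 0.87, adjusted p = 0.172, and of 15 alternatives it passed only without zuo1Δ heat replicate 1, at 3.48 (adjusted p = 0.0425).

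HXT4 mRNA also spread widely between the zuo1Δ heat libraries, at 118 and 359.6 CPM for replicates 1 and 2, with replicate 1 a doubted library. Wild-type heat mRNA stood at 151 and 104 CPM and unstressed zuo1Δ mRNA at 144 and 36.2, which enclose the lower of these. In wild type, HXT4 footprints stayed between 40.5 and 65.3 CPM in all 6 libraries, and neither stress passed (heat at log2 -0.25 ± 0.65, adjusted p = 0.842). With library size alone, HXT4 mRNA was called higher in zuo1Δ than in wild type after heat at 2.56 (adjusted p = 0.00454), from 0.91 ± 0.69, adjusted p = 0.300 with TMM factors. Of its neighbours on chromosome VIII, HXT1 stood at 372 and 255 CPM in zuo1Δ heat mRNA and 405 and 554 in footprints, and HXT5 at 12.8 and 33 and 43 and 21.1, so replicate 2 was the higher in some of these and the lower in others.

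HXT5, a transporter gene of moderate affinity known from stressed and slowly growing cells, rose after heat in the footprints of both genotypes. Wild-type HXT5 footprints were at 2.12 and 1.33 CPM without stress, 4.34 and 6.10 after H2O2 and 22.1 and 21.1 after heat, and the 3 groups did not overlap. The unstressed values rest on 3 and 2 counts, so the ratio of pooled counts after heat against unstressed was 12.5 (95% exact counting interval 5.26 to 38.9) and after H2O2 3.38 (95% exact counting interval 1.40 to 10.7), where the intervals cover counting error only. In zuo1Δ the footprints stood at 10.3 and 6.49 CPM without stress, 6.59 and 11.4 after H2O2 and 43 and 21.1 after heat. The heat libraries lay above the other 4 of zuo1Δ. The rise with heat passed in wild type (log2 3.64 ± 0.64, adjusted p = 0.00404, edgeR) and in zuo1Δ (1.93 ± 0.39, adjusted p = 0.0104). The wild-type call was lost without unstressed replicate 2 at 3.28 (adjusted p = 0.0549), and the zuo1Δ call without unstressed replicate 2 at 1.67 (adjusted p = 0.0532) and without heat replicate 1 at 1.30 (adjusted p = 0.117). Adjusted p ran from 8.20e-05 to 0.0549 over 11 alternatives in wild type and from 3.06e-04 to 0.117 over 11 alternatives in zuo1Δ. The difference after H2O2 in wild type did not pass (1.67 ± 0.72, adjusted p = 0.130).

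Without stress, HXT5 footprints lay higher in both zuo1Δ libraries than in wild type, with a pooled count ratio of 5.31 (95% exact counting interval 2.23 to 16.6). The test did not pass in edgeR (log2 2.31 ± 0.68, adjusted p = 0.0767), while DESeq2 gave 2.27 (adjusted p = 0.0446) and library size alone 2.54 (adjusted p = 0.0355), and adjusted p ran from 0.0355 to 0.340 over 11 alternatives. In mRNA, HXT5 stood at 14.2 and 6.14 CPM in unstressed wild type, 30.2 and 19.6 after H2O2 and 88.1 and 60.9 after heat, again in 3 groups without overlap. The heat difference in wild-type mRNA did not pass (log2 2.87 ± 0.75, adjusted p = 0.0702, edgeR), and of 11 alternatives it passed in 5 and not in 6. It passed with library size alone at 3.35 (adjusted p = 0.0274), in DESeq2 at 2.86 (adjusted p = 0.00170) and with the replicate number as a block at 2.89 (adjusted p = 0.0468). With only the groups compared it was 2.88 (adjusted p = 1.76e-04), and without unstressed replicate 1 it was 3.60. In zuo1Δ mRNA HXT5 stood at 23.9 and 6.15, 10.9 and 44.6 and 12.8 and 33 CPM, and all 3 groups overlapped. The difference in heat response between genotypes in mRNA was log2 -2.27 ± 1.00, adjusted p = 0.273, and it passed without unstressed zuo1Δ replicate 2 at -2.94 (adjusted p = 0.0467).

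HXT7, a high-affinity transporter gene that glucose represses, passed in none of the 21 comparisons of the main fits, and its unstressed mRNA replicates differed more than those of nearly all other genes. Its mRNA stood at 123 and 23.9 CPM in replicates 1 and 2 of unstressed wild type and at 149 and 9.90 in unstressed zuo1Δ, which are ratios of 5.12 and 15.1. These differences lay at percentiles 99.96 and 99.98 of the same difference over 5070 genes. The mRNA genotype difference without stress was log2 0.12 ± 0.90, adjusted p = 0.948. Without zuo1Δ unstressed replicate 1, the library with the highest value, it turned to -2.87 (adjusted p = 0.0441). In footprints of the same groups HXT7 stood at 28.9 and 11.3 and at 47.9 and 8.03 CPM, with replicate 1 again the higher. With TMM factors, replicate 1 was above replicate 2 in all 6 mRNA groups and in 5 of 6 footprint groups, the exception being zuo1Δ H2O2, whose replicate 1 is a doubted library. In zuo1Δ heat mRNA, where replicate 1 is also doubted, the values were close, at 26.1 and 25.6 CPM. Scaled by library size alone they were 41.1 and 49.6, with replicate 2 the higher. After H2O2, wild-type HXT7 footprints stood at 60.0 and 41.7 CPM, above both unstressed libraries, and zuo1Δ footprints at 20.2 and 28.8, within the range of its unstressed libraries. Neither the wild-type difference (log2 1.33 ± 0.72, adjusted p = 0.227, edgeR) nor the genotype difference after H2O2 (-1.05 ± 0.62, adjusted p = 0.256) passed. Of 11 alternatives each passed in 1, only the groups compared, at 1.29 (adjusted p = 0.0291) and -1.05 (adjusted p = 0.0370). HXT7 mRNA after H2O2 stood at 147 and 67.5 CPM in wild type and 24.6 and 16.1 in zuo1Δ, whose replicate 2 is doubted. That difference was log2 -2.40 ± 0.95, adjusted p = 0.139 (edgeR). It passed with the replicate number as a block at -2.28 (adjusted p = 0.0452) and with only the groups compared at -2.32 (adjusted p = 0.00498).

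**Figure D4:**
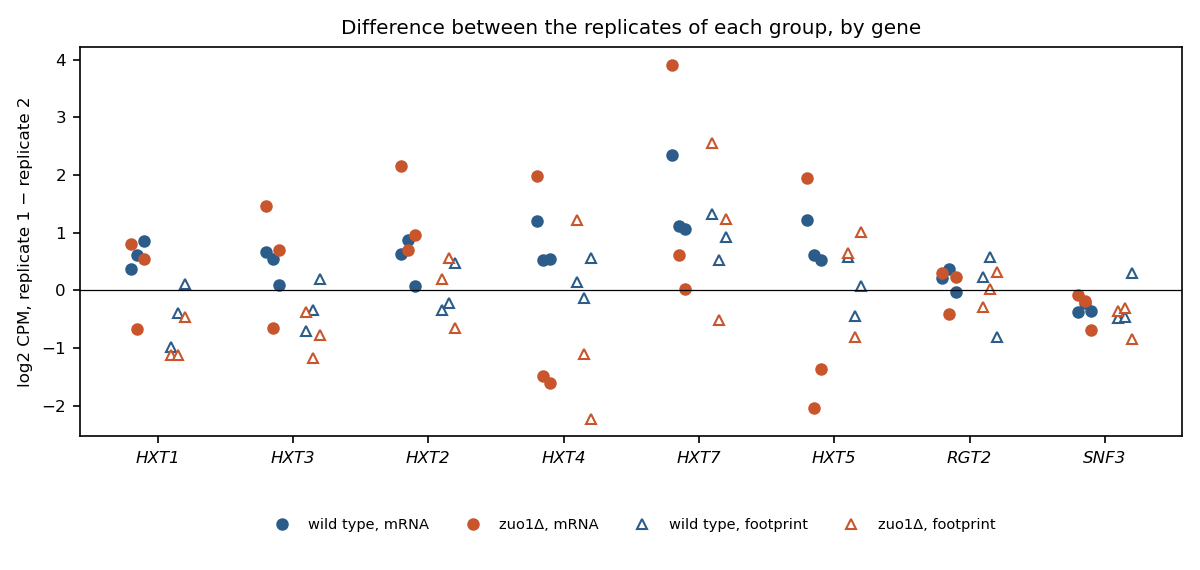
log2 CPM of replicate 1 minus replicate 2 (with 0.5 counts added) in each of the 12 groups for each gene. Filled circles are mRNA and open triangles footprints, in the order unstressed, H2O2 and heat within each cluster. HXT7 lies above 0 in 11 of 12 groups, and HXT1 and HXT3 lie mostly above 0 in mRNA and mostly below 0 in footprints.

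Some of the other transporter genes also split between replicates in unstressed libraries. In unstressed zuo1Δ mRNA, replicate 1 over replicate 2 was 4.46 for HXT2, 3.97 for HXT4 and 3.88 for HXT5, each above percentile 98 of all genes. HXT3 and HXT1 differed less there, at 2.75 and 1.74 (percentiles 91.8 and 78.9). In unstressed wild-type mRNA, HXT4 and HXT5 lay at percentiles 96.2 and 96.3, and HXT1, HXT2 and HXT3 at 64.4, 77.0 and 78.2. In unstressed zuo1Δ footprints the ratio was 1.15 for HXT2, 2.32 for HXT4 and 1.57 for HXT5, and below 1 for HXT1, at 0.460 (percentile 0.868), and HXT3, at 0.775. HXT1 and HXT3 were higher in replicate 1 in 5 of 6 mRNA groups and higher in replicate 2 in 5 of 6 footprint groups. Whether the replicate number marks a shared culture across assays is not stated in the labels, and what moves these genes between replicates was not tested.

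With TMM factors both sensor genes spanned a narrower range in mRNA than the transporter genes did, and with library size alone that order did not hold for SNF3. RGT2 mRNA stood between 40.6 and 74.4 CPM over 12 libraries with a median of 60.7, and SNF3 mRNA between 13.6 and 29.9 with a median of 20.7. The highest library was 1.84 times the lowest for RGT2 and 2.20 times for SNF3, against 9.44 times for HXT3 and 21.4 times for HXT1. Scaled by library size alone, RGT2 ran from 28 to 95.6 CPM, SNF3 from 5.80 to 58, HXT3 from 652 to 2559 and HXT1 from 289 to 1507. RGT2 footprints stood between 5.97 and 17.6 CPM and SNF3 footprints between 5.06 and 11.9. These footprint levels rest on as few as 9 counts for RGT2 and 10.0 for SNF3 in a library, so modest differences were not detectable at this depth. Neither sensor gene was called by edgeR in any of the 21 comparisons. The unstressed footprints of RGT2 lay at 7.06 and 5.97 CPM in wild type and 11 and 13.5 in zuo1Δ, without overlap, at log2 0.90 ± 0.40, adjusted p = 0.234. With library size alone, both sensor genes were called higher in unstressed zuo1Δ mRNA, where the median of all genes moved to 1.50, and SNF3 was also called higher in zuo1Δ mRNA after heat at 2.14 (adjusted p = 0.00598), from 0.65 ± 0.32, adjusted p = 0.119 with TMM factors.

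RGT2 carried few footprints for its mRNA in all 6 combinations of genotype and condition. Its ratio of footprint to mRNA group mean CPM ran from 0.0975 to 0.357, at percentiles 0.848 to 4.20 of 5070 genes. SNF3 lay at percentiles 2.86 to 21.3. In unstressed wild type the ratio was 0.0975 for RGT2, 0.169 for HXT5, 0.272 for HXT3, 0.274 for HXT7, 0.348 for HXT2, 0.448 for HXT1, 0.460 for SNF3 and 0.506 for HXT4, against a median of 1.04 over all genes. All 8 genes thus stood below the median gene there. HXT2 had the widest range, from 0.306 in wild-type heat to 3.63 in zuo1Δ H2O2, a group with a doubted library in each assay. A test of the change in footprints relative to mRNA called 0 of the 8 genes for genotype without stress, for H2O2 in wild type and for heat in wild type (edgeR), with 0 at an unadjusted p under 0.05 and 0 by DESeq2 in each, while it called 0.0394%, 0% and 0.0986% of all genes. On simulated counts for genotype without stress, that test gave back 4 of 100 genes changed 2-fold and 51 of 100 changed 4-fold. Most 2-fold changes would thus be missed by it.

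The make-up of transporter reads within a library needs no scaling between libraries, and in wild type the HXT2 share was smaller after both stresses and the HXT1 share larger after heat. Of the length-scaled footprint counts on the 6 transporter genes, HXT2 took 49.8% and 43.5% in the unstressed wild-type libraries, 30.9% and 29.9% after H2O2 and 24.6% and 20.9% after heat. HXT1 took 13.8% and 18.7% without stress, 19.1% and 20.6% after H2O2 and 36.3% and 39.8% after heat. HXT3 took 30.8% and 34.9%, then 41% and 42.7%, then 32.9% and 34.1%, with its highest values after H2O2. In mRNA HXT2 took 43.8% and 43.9% without stress and 14.3% and 17.6% after heat in wild type, and HXT1 11.4% and 13.8% and 40.9% and 29.2%. The heat and unstressed shares did not overlap for either gene in either assay.

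In zuo1Δ the HXT2 share was larger without stress and the HXT4 share larger after heat. HXT2 took 68.4% and 59.1% of unstressed zuo1Δ footprints and 63.6% and 51.3% of the mRNA, above both wild-type libraries in each assay, while HXT3 took 17.2% and 22.2% and 24.5% and 32.1%, below both (30.8% and 34.9% of wild-type footprints and 40.7% and 40.1% of wild-type mRNA). After H2O2 the HXT2 footprint share was 63.2% and 34.7%, the first from the doubted library and close to the unstressed shares. After heat HXT2 took 23.7% and 21% in zuo1Δ, between the wild-type heat shares. HXT4 took 8.61% and 22.7% of zuo1Δ heat footprints and 5.48% and 22.3% of the mRNA, against 3.58% and 2.90% and 1.83% and 1.64% in wild type. These shares are given as descriptions with no test.

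**Figure D5:**
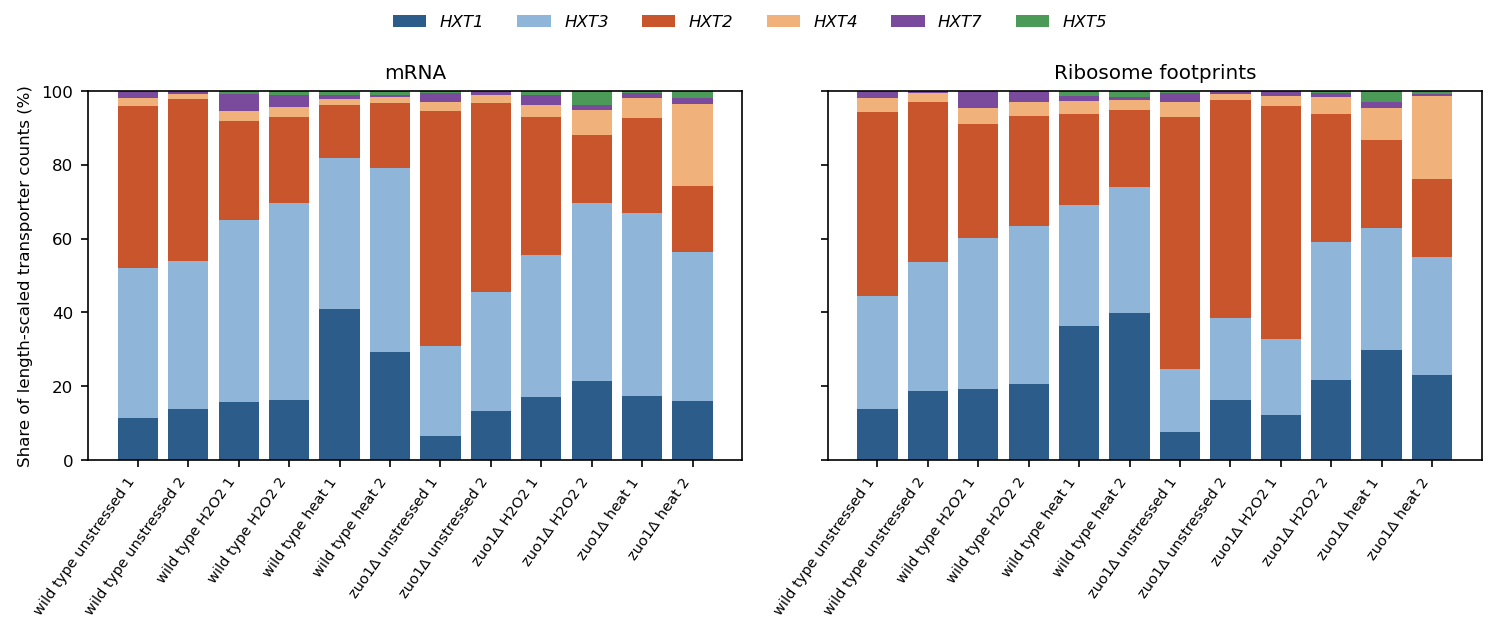
Share of the length-scaled counts of HXT1, HXT3, HXT2, HXT4, HXT7 and HXT5 in each of the 24 libraries, in percent of their sum. The HXT2 segment is smaller after heat than without stress in both genotypes and assays, and the HXT4 segment is largest in zuo1Δ heat replicate 2.

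Among 50 other genes listed for glucose sensing and uptake, 35 were analysed here; the remaining 15 were other sugar transporter genes. Of 8 genes on the path from the sensors to Rgt1, the calls over all comparisons were 2, both in mRNA and both higher in zuo1Δ after heat, a comparison in which 37.3% of all genes were called. One of them was STD1, an Rgt1 cofactor gene, at log2 2.12 ± 0.46, adjusted p = 0.00842, which was lost without wild-type heat replicate 1 at 2.04 (adjusted p = 0.0640), without zuo1Δ heat replicate 2 at 1.93 (adjusted p = 0.0886) and without the doubted libraries at 2.29 (adjusted p = 0.0610). In footprints the median log2 fold change of these 8 genes was -0.02 for heat in wild type and -0.20 for heat in zuo1Δ.

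Of 16 genes of glucose repression by Snf1 and Mig1, edgeR called 1 higher and 1 lower in footprints after heat in wild type, 1 lower after heat in zuo1Δ, 1 higher after H2O2 in wild type and 1 lower in zuo1Δ than in wild type after H2O2. Of all genes, 9.81%, 11.9%, 18.1% and 19.0% were called in these comparisons in either direction, so 1 or 2 of 16 genes lay near or below the background. The call after heat in zuo1Δ was the invertase gene SUC2, which glucose represses. Its footprints stood at 101 and 102 CPM in unstressed zuo1Δ and 47.1 and 47.4 after heat (log2 -1.10 ± 0.17, adjusted p = 0.00334), with adjusted p from 1.06e-05 to 0.0292 over 11 alternatives. In wild type SUC2 footprints stood at 82.5 and 89 CPM without stress and 72.8 and 66.6 after heat, also without overlap, and that difference did not pass (-0.30 ± 0.17, adjusted p = 0.284). In mRNA after heat, 4 of the 16 genes were called higher and 3 lower in zuo1Δ than in wild type, near the 37.3% of all genes called there, among them SUC2 at -1.30 ± 0.40, adjusted p = 0.0242, which turned to 0.23 (adjusted p = 0.693) with library size alone.

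HXK2, the main hexokinase in glucose and a partner of Mig1, was lower in zuo1Δ footprints in each condition and fell after heat in both genotypes. HXK2 footprints stood at 4356 and 4261 CPM in unstressed wild type and 2242 and 2156 in unstressed zuo1Δ. After heat they stood at 2391 and 1982 CPM in wild type and 788 and 940.3 in zuo1Δ, below every unstressed library of the same genotype. The genotype difference was log2 -0.97 ± 0.14, adjusted p = 0.00206 without stress, -0.93 ± 0.14, adjusted p = 0.00217 after H2O2 and -1.34 ± 0.14, adjusted p = 3.67e-04 after heat (edgeR). Heat gave -0.98 ± 0.14, adjusted p = 0.00117 in wild type and -1.35 ± 0.14, adjusted p = 5.43e-04 in zuo1Δ, and these 5 calls held in all 11 alternatives each. HXK2 was also called lower after H2O2 in wild-type footprints, at 2945 and 3250 CPM, a call that held in only 6 of 11 alternatives. Of the other 3 sugar kinase genes, 2 were called higher in footprints after H2O2 in wild type (18.1% of all genes called), among them glucokinase gene GLK1 at log2 2.16 ± 0.48, adjusted p = 0.00976. That call was lost without unstressed replicate 2 at 1.64 (adjusted p = 0.109) and without H2O2 replicate 1 at 2.06 (adjusted p = 0.0556), with adjusted p from 6.00e-04 to 0.109 over 11 alternatives. After H2O2, GLK1 and EMI2 were also called lower in zuo1Δ than in wild-type footprints (19.0% of all genes called). Each of the 2 calls held in 7 of 11 alternatives. Of 7 genes for ubiquitin-driven endocytosis of transporters, 2 were called higher in footprints after H2O2 in wild type and 2 lower in zuo1Δ than in wild type after H2O2, against 18.1% and 19.0% of all genes, and each of these 4 endocytosis calls was lost without at least 1 library.

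For each gene, the gene outside the family with the most similar footprint profile was found by Pearson's r of log2 CPM over the 12 footprint libraries, among 4617 genes with a mean of at least 10 CPM in footprints. This is a description of libraries that share treatments and replicates. HXT2 was most like the ribosomal protein gene RPS23B (r = 0.984 in footprints and 0.848 in mRNA), HXT5 like HPA3 (0.962 and 0.757) and HXT7 like RFS1 (0.944 and 0.762). RGT2 was most like RPB11 (0.902 and 0.252) and HXT3 like LYS4 (0.826 and 0.856). For HXT1 with RRP15 (0.888 and -0.780) and SNF3 with EFM4 (0.867 and -0.395) the sign turned in mRNA. HXT4 was paired with MTH1, which encodes an Rgt1 cofactor, at 0.919 in footprints (Spearman's rho 0.636) and 0.787 in mRNA. MTH1 footprints stood at 9.73 and 49.5 CPM in zuo1Δ heat replicates 1 and 2 and were under 10 CPM in the 11 libraries other than the latter, so MTH1 met the minimum mean only through the library in which HXT4 was also highest, and little can be read from that pair. The most alike pair inside the family was HXT5 and RGT2 at 0.646, and 399 genes outside it were more like HXT5 than RGT2 was.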

How the data were processed

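The authors deposited one table of read counts for 5211 genes in 24 libraries, whole numbers that the labels give no scaling for. Cutadapt, Bowtie2, HISAT2 and SAMtools are named, without versions, in the submitters' processing notes, with genome build R64; the counting tool, its annotation and its strand setting were not stated in the sources used here. Reads shared by near-identical genes may therefore be split or dropped. Per the labels' protocols, mRNA was selected on oligo(dT) beads and sequenced with random priming, and the footprint lysates held cycloheximide. The labels call the 2 libraries of a group biological replicates. The p-values set a difference against the spread between replicates, estimated over all groups in a fit.

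Gene names, positions and lengths came from the RefSeq table of assembly R64, which matched 5198 of the 5211 identifiers. Genes above 0 in both genotypes (5070) were kept, then those passing filterByExpr (at least 10 counts). Counts were tested with edgeR 4.0.16 (limma 3.58.1, R 4.3.3): TMM factors, a group-means model over the 12 libraries of an assay (24 for footprints relative to mRNA) and the quasi-likelihood test, with Benjamini-Hochberg adjustment over all genes tested and a threshold of 0.05. SE is the log2 fold change divided by the square root of F. CPM and RPKM were computed from the counts with TMM-scaled totals. Percentiles of replicate differences used log2 CPM with 0.5 counts added. The spread between replicates, as edgeR's biological coefficient of variation, was 0.169 in footprints and 0.318 in mRNA. Tested on simulated counts for genotype without stress, footprints (5066 genes) gave back 65 of 100 genes changed 2-fold and 99 of 100 changed 4-fold, and mRNA (5070 genes) 8 and 83. The test of footprints relative to mRNA (5070 genes) gave back 4 and 51. Of the unchanged genes, 8 were called in footprints, 6 in mRNA and 3 for footprints relative to mRNA. The changed genes were drawn only from those with a mean of at least 10 CPM. Recovery was thus not measured for lower genes, and the median over footprint libraries was 7.12 CPM for SNF3 and 8.43 for HXT5.

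The members and the 5 pathway lists were chosen with earlier results of these data known. All analysed members are described, and for each list at most 3 called genes per comparison, those with the smallest adjusted p, could be named. For likeness, the gene outside the family with the highest r was named. The doubted libraries were set, after values were seen, by 65 marker genes per stress, the 100 with the largest log2 rise in wild-type footprints less those shared by both stresses. Alternatives were DESeq2 1.42.0, RLE factors, scaling by library size alone, dropping the low-count filter, the replicate number as a block, only the groups compared, each library left out in turn, raw-count shares and, added after seeing the data, leaving out the doubted libraries.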

Additional observations from a re-analysis of the deposited data

How the results depend on the processing

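Of the 10 calls of transporter genes, 1 held in every alternative, the lower HXT2 footprints after heat in zuo1Δ. RLE factors and dropping the low-count filter changed no count of called members by over 1.5 times. The main values were 0 of 8 for footprint genotype without stress and for mRNA genotype without stress, mRNA genotype after H2O2 and mRNA stress effects in either genotype, 1 for footprint genotype after H2O2 and for H2O2 in wild-type footprints, and 2 for mRNA genotype after heat. With library size alone the members called were 1 for footprint genotype without stress (HXT5 higher), 3 for mRNA genotype without stress (HXT5, RGT2 and SNF3 higher), 3 for mRNA genotype after heat (HXT1 lower, HXT4 and SNF3 higher, HXT3 lost), 2 for H2O2 in wild-type mRNA (HXT5 and SNF3 higher) and 2 for heat in wild-type mRNA (HXT1 and HXT5 higher). It turned the mRNA genotype difference after heat of HXT2 to 0.0081, of SUC2 to 0.23 and of MIG3 to 0.62. DESeq2 called 1 for footprint genotype without stress (HXT5), and in mRNA 1 for genotype without stress (HXT1 lower), 1 for genotype after H2O2 (HXT3 lower), 4 for genotype after heat (HXT1, HXT2, HXT3 and HXT5 lower), 1 for H2O2 in wild type (HXT2 lower), 2 for heat in wild type (HXT1 and HXT5 higher), and 1 each for H2O2 and heat in zuo1Δ (HXT2 lower). With only the groups compared the counts were 2 for footprint genotype after H2O2 and 2 for H2O2 in wild-type footprints (HXT7 added in both), and in mRNA 2 for genotype after H2O2, 5 for genotype after heat, 1 for H2O2 in wild type and 1 for heat in wild type. Without the doubted libraries, 0 members were called for footprint genotype after H2O2 and 0 for mRNA genotype after heat. The cause of these shifts was not tested.

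With each library left out in turn, the members called ran from 0 to 1 for footprint genotype after H2O2, footprint genotype after heat, H2O2 in wild-type footprints, the difference in heat response in footprints and in mRNA, mRNA genotype without stress and heat in wild-type mRNA. They ran from 1 to 2 for heat in wild-type footprints, from 1 to 2 for heat in zuo1Δ footprints and from 0 to 2 for mRNA genotype after heat. The difference between genotypes in the HXT7 footprint response to H2O2 ran from -2.38 to 0.26, the latter without zuo1Δ unstressed replicate 1. Without the mRNA library of that group and number, the HXT7 mRNA genotype difference turned from 0.12 to -2.87. With a library left out, the lone library of its group is assumed to vary like the other groups.

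The replicate numbers were not taken as pairs, since the labels give them no shared batch and not every correlation of replicate differences was over 0.1: these were -0.320 to 0.786 (10 of 15 over 0.1) within mRNA, -0.0743 to 0.436 (8 of 15 over 0.1) within footprints and -0.273 to 0.226 (3 of 6 over 0.1) between the assays of 1 genotype and condition. Among the wild-type groups alone every one was over 0.1, from 0.306 to 0.657 in mRNA and 0.168 to 0.318 in footprints. Unstressed zuo1Δ went with them. Its correlations with wild type unstressed, after H2O2 and after heat were 0.786, 0.534 and 0.227 in mRNA and 0.436, 0.291 and 0.219 in footprints. These values are a hint of pairing from the data. Within an assay, every correlation under 0.1 involved a stressed zuo1Δ group. Not all of these groups hold a doubted library. The zuo1Δ heat footprints hold none, and their correlations with wild-type footprints were 0.00805 after H2O2 and -0.0373 after heat. With the replicate block, mRNA calls were 1 for genotype after H2O2 (HXT7 lower), 3 for genotype after heat (HXT1, HXT3 and, at -1.58 (adjusted p = 0.0195), HXT2 lower), 1 for H2O2 in wild type (HXT2 lower) and 2 for heat in wild type (HXT1 and HXT5 higher), and HXT1 was also called higher after heat in the footprints of wild type at 0.92 (adjusted p = 0.0462) and zuo1Δ at 1.07 (adjusted p = 0.0211).

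Shares of raw counts moved by more than the spread between replicates for HXT3 (41.2%) and HXT2 (42.7%) in unstressed wild-type mRNA and HXT2 after H2O2 in wild-type footprints (29.4%). Summing HXT6 and HXT7 was not run, as HXT6 was not analysed here, nor were lengths from a protein table. Of the 28 pathway calls that could be named, 6 held in every alternative. Low footprint counts of HXT5 and the sensor genes limit what can be seen of them, and 2 libraries a group limit every call.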
